A study of Homo sapiens with 40 samples.

Results

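CTCF and the genes of the cohesin complex were followed through the chromatin maps of a human beta-cell line, before and after it was driven into senescence. The 10 genes were CTCF, RAD21, SMC1A, SMC3, STAG1, STAG2, NIPBL, WAPL, PDS5A and PDS5B. They were chosen by name and not by their own values, though with earlier results of these data known. To them were assigned all peaks within 2 kb of one of their start sites in GENCODE release 44, all peaks inside their gene bodies, and all peaks within 100 kb whose nearest protein-coding start site was theirs. This gave 37 of the 51489 H3K27ac peaks (15 by a start site, 16 by a gene body and 6 by proximity) and 42 of the 51457 CTCF peaks (13, 18 and 11). No peak was assigned to more than 1 of the genes.

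The cells were EndoC-βH3, a human pancreatic beta-cell line. Its immortalizing transgenes, hTERT and the SV40 large T antigen, can be cut out by a tamoxifen-inducible Cre recombinase. Per the paper, the large T antigen inhibits the retinoblastoma protein. Senescent cells had been treated with 4-hydroxytamoxifen (4-OHT) for 3 weeks, and non-senescent cells were the control without it. H3K27ac, an acetylated histone residue found where promoters and enhancers are active, and CTCF binding were each measured by chromatin immunoprecipitation and sequencing (ChIP-seq) in 3 non-senescent and 3 senescent libraries, and H3K4me1, an enhancer mark, and the retinoblastoma protein Rb in 2 and 2, each with its own input. All libraries came from this 1 line, labelled wild type, and nothing in the labels says that they came from separate cultures, so the errors below may hold technical spread alone. 4-OHT exposure and the excision of the transgenes go with senescence in every library, so their parts cannot be told apart.

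CTCF is a zinc-finger protein that binds a long DNA motif and stops the sliding of cohesin, so that CTCF sites lie at the bases of chromatin loops. Cohesin is a ring of SMC1A, SMC3 and the kleisin RAD21, to which either STAG1 or STAG2 binds. NIPBL, with its partner MAU2, loads the ring onto DNA and drives loop extrusion, while WAPL, helped by PDS5A and PDS5B, opens the ring and releases it. The same ring holds sister chromatids together until mitosis, and germline mutations of NIPBL are a main cause of Cornelia de Lange syndrome.

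The deposited tables give, for each peak, the mean normalized count over the 6 libraries and the log2 fold change of senescent over non-senescent cells with its standard error (SE), but no value for a single library. The level in each state is therefore stated here as the mean implied by those figures. Mean counts were 11.3 to 3172 at the H3K27ac peaks of the 10 genes and 4.80 to 867 at their CTCF peaks, and the median SE was 0.24 and 0.29 on the log2 scale. All 11 beta-cell markers examined had an H3K27ac promoter peak, at percentiles from 17.8 for IAPP to 98.3 among promoter peaks per kb and a median of 92.7, whereas the 3 stromal and 2 endothelial markers had none. The acinar marker CPA1, the duct marker KRT19, both leukocyte markers and 2 of the 4 markers of other islet hormones did have one, at percentiles from 11.2 to 85.4. CPA1, the highest of these, lay above some of the beta-cell markers, such as INS at 72.6 and ABCC8 at 52.6. A bulk profile cannot tell a mark lost in every cell from a mark lost in part of the cells, and the counts were scaled so that the typical peak does not change, which hides a change common to all peaks.

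The start-site windows of 4 genes are shown because each lies within a CTCF peak and holds a motif that was searched for. RefSeq (GRCh38.p14) gave a window from 250 bases before to 50 bases after the start for 9 of the 10 genes, 12 windows in all. Capitals mark the CTCF core motif (12 positions, at most 1 mismatch, either strand), the E2F-like motifs TTTCGCGC, TTTGGCGC and TTTCCCGC, and TTTGAA, the cell cycle homology region (CHR). All motifs were searched on both strands and do not overlap one another here. The sequences run along the strand of the gene.
CTCF, chr16:67562276-67562575, plus strand: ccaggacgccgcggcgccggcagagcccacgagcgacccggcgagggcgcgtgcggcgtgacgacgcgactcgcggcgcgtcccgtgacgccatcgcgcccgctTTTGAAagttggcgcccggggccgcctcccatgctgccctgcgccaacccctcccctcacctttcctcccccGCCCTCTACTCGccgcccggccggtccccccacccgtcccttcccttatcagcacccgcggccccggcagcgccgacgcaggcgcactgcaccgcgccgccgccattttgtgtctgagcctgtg
STAG1, chr3:136752329-136752628, minus strand: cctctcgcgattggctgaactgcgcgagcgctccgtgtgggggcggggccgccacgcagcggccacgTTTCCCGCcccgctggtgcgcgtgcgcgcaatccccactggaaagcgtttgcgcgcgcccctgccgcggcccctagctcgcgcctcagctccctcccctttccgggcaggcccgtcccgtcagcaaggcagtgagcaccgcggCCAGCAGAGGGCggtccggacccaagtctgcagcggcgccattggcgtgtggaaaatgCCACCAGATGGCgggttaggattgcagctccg
NIPBL, chr5:36876519-36876818, plus strand: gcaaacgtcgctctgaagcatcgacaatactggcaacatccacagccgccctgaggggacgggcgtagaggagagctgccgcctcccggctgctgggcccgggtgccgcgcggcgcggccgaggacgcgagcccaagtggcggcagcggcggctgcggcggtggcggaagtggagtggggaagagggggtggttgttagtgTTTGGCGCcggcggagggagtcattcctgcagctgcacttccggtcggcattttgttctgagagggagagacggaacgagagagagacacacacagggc
PDS5B, chr13:32586202-32586501, plus strand: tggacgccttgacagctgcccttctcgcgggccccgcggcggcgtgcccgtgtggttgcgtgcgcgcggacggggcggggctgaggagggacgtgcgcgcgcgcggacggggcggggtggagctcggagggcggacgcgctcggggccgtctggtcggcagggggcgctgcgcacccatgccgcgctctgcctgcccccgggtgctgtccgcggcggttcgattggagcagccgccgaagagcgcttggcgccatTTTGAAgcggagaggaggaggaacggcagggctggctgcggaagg
The window of STAG1 held 2 exact CTCF cores and the E2F-like TTTCCCGC, and that of the CTCF gene a core with 1 mismatch and a TTTGAA. The window of NIPBL and 1 window of STAG2 held TTTGGCGC, 1 window of SMC1A held TTTCCCGC, and the windows of PDS5B and SMC3 held TTTGAA. Among 35116 RefSeq windows of the same length, the CTCF core was found in 4.94%, TTTGAA in 15.2%, TTTCCCGC in 1.63%, TTTGGCGC in 0.652% and TTTCGCGC in 0.515%. TTTCGCGC was in none of the 12 windows of these genes.

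The CTCF core motif was also searched in the CTCF peaks themselves, in hg38. For CTCF, SMC3, STAG1, STAG2, NIPBL, WAPL and PDS5B, the best-matching site in the strongest peak that held one is shown, together with a site in NIPBL that lies in a peak gained in senescence. Capitals mark the 12 core positions, with 4 flanking bases on either side, along the strand of the motif.
CTCF, start-site peak, chr16:67562448-67562467, minus strand, 1 mismatch: gcggCGAGTAGAGGGCgggg
SMC3, upstream peak, chr10:110547347-110547366, minus strand, exact: tttaCCACTAGAGGGCggtg
STAG1, start-site peak, chr3:136752403-136752422, minus strand, exact: gcggCCAGCAGAGGGCggtc
STAG2, gene body, chrX:124388757-124388776, plus strand, exact: atgaCCACCAGATGGCagtg
NIPBL, upstream peak, chr5:36870630-36870649, minus strand, 1 mismatch: ctaaCCAGCAGAGGGAgcca
NIPBL, gene body, gained peak, chr5:37006127-37006146, minus strand, 1 mismatch: ttcaCCACTAGATGACaccc
WAPL, upstream peak, chr10:86585624-86585643, minus strand, 1 mismatch: tctgCCACTGGGTGGCactg
PDS5B, gene body, chr13:32639699-32639718, minus strand, 1 mismatch: gcaaCCAGCAGATGGTgccc
The site shown for the CTCF gene lay 604 bp from the centre of its peak, and the other sites shown within 126 bp of theirs. Of the 42 CTCF peaks, 19 (45.2%) held the core with at most 1 mismatch, next to 47.2% of all CTCF peaks in the table, and 5 held it exactly, next to 13.5% of all. Within the central 300 bp, 17 of the 42 peaks held it with at most 1 mismatch. The 19 peaks had a median mean count of 140.7 and the others 23.4. Over the whole table the medians were 122 with the motif and 32.0 without it. Strong peaks without it included the start-site peaks of PDS5A, PDS5B and STAG2. Per the study's methods, the CTCF peak set had been screened for a CTCF motif with another motif model. That screen was not repeated, and a peak without the core as searched here may still hold a CTCF motif. At the thresholds used below, 1180 of the deposited CTCF peaks were gained and 1690 lost. Both counts exceed those the paper reports for sites with the motif. Whether each of the 42 peaks passed the screen is therefore not known.

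To ask whether the architecture genes kept their active chromatin in senescence, H3K27ac was read at their start sites, taking for each gene the peak with the highest mean count. All 10 genes had such a peak, and none was gained or lost, a call that takes a fold change over 1.5 with an adjusted p below 0.05. Among the 14007 H3K27ac peaks at coding promoters, 4.53% were gained and 9.81% lost. That set includes weaker peaks, with a median mean count of 448, where the lowest of the 10 genes had 610. Shares gained and lost among peaks of like strength were not computed. The 95% interval of every one of the 10 changes lay within 1.5-fold in either direction. How many other promoter peaks have such an interval was not computed, so whether this is particular to these genes was not tested. The log2 fold changes ran from -0.30 at PDS5B to 0.33 at RAD21, with a median of -0.09, or -0.10 without RAD21. The median over all promoter peaks was 0.03, with quartiles at -0.24 and 0.24. Over the 5588 promoter peaks with a mean count at or above the lowest of the 10, the median was 0.095.

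Per kb of peak, H3K27ac at the 10 promoters was 183 to 421 normalized counts, against a median of 152 over all promoter peaks, and their percentiles ran from 59.6 to 95.9. STAG1, STAG2 and the CTCF gene were the highest, at 421, 367 and 363 counts per kb, and PDS5B and SMC1A the lowest, at 183 and 184. By adjusted p alone, without the fold threshold, RAD21 was higher and SMC3, PDS5A and PDS5B were lower in senescent cells. Of all promoter peaks, 22.9% were higher and 19.4% lower by that rule. With the trend of fold change with GC content removed, STAG1 also passed, on the lower side, so that 5 of the 10 did. The shares of all promoter peaks were not recomputed with the trend removed, so this count cannot be called high or low.

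**Figure D1:**
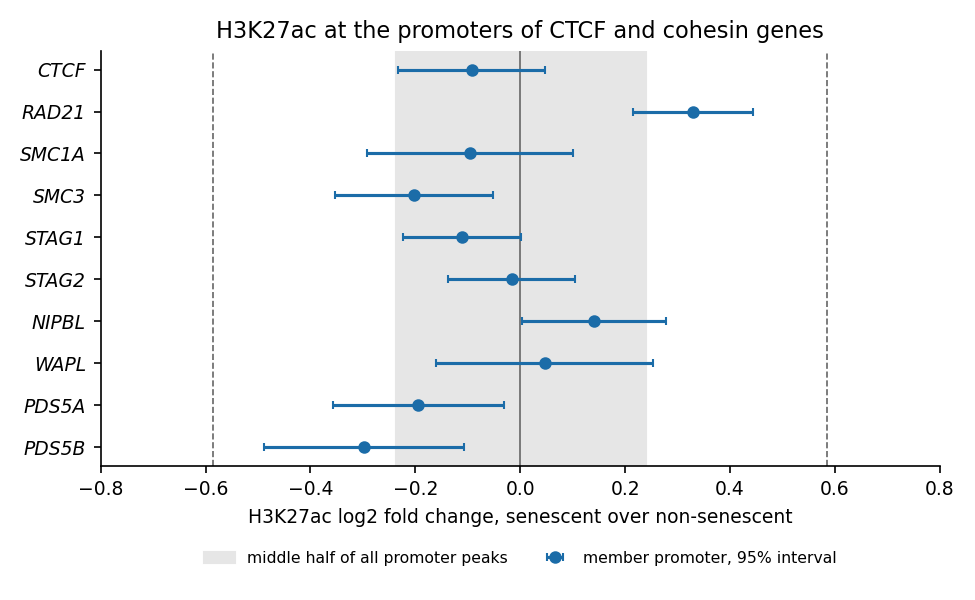
Log2 fold change of H3K27ac, senescent over non-senescent, at the strongest start-site peak of each gene. Points are the deposited estimates and bars their 95% intervals, dashed lines mark a fold change of 1.5, and the grey band spans the quartiles of all promoter peaks. All 10 bars stay between the dashed lines, and RAD21 is the one gene to the right of the band.

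At the start of the CTCF gene, the H3K27ac peak (chr16:67560890-67565025) also covered the start of the divergent transcript CTCF-DT. Its implied mean was 1551 normalized counts in non-senescent and 1455 in senescent cells. The log2 fold change was -0.09 with an SE of 0.07 (adjusted p = 0.313, authors' DESeq2 fit). An Rb region listed for senescent cells lay inside this peak, at chr16:67562785-67563257, 259 bp past the canonical start. Apart from a CTCF peak at the same start site, the gene had no other peak.

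Among the 3 proteins of the ring, RAD21, the kleisin that closes it, had the one promoter signal that passed the adjusted p on the higher side in senescence, short of the fold threshold. Its H3K27ac peak (chr8:116860284-116875841) was 15558 bp wide and ran from upstream of the start site into the gene, also covering RAD21-AS1 and MIR3610. The implied mean was 2811 and then 3532 normalized counts, with a log2 fold change of 0.33 and an SE of 0.06 (adjusted p = 1.38e-07, authors' DESeq2 fit). The interval on the linear scale was 1.16 to 1.36. The value covers the whole 15558 bp, including a non-senescent enhancer of 5727 bp inside the gene, so it is no measure of the start site alone.

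SMC1A and SMC3, the paired ATPase arms of the ring, both had point estimates below 0. The SMC1A peak (chrX:53420846-53424466), which also covers the start of its divergent neighbour RIBC1, had implied means of 687 and 643 counts. Its log2 fold change was -0.10 with an SE of 0.10 (adjusted p = 0.472, authors' DESeq2 fit). The SMC3 peak (chr10:110566303-110570230) went from 1161 to 1009 counts, a log2 fold change of -0.20 with an SE of 0.08 (adjusted p = 0.025, authors' DESeq2 fit). The difference between them, SMC3 minus SMC1A, was -0.11 with a 95% interval from -0.35 to 0.14, so that the arms could not be told apart.

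STAG1 and STAG2, the alternative subunits that dock on the ring, had the densest acetylation of the cohesin genes. The STAG1 peak (chr3:136748871-136754563) had implied means of 2486 and 2303 counts, with a log2 fold change of -0.11 and an SE of 0.06 (adjusted p = 0.116, authors' DESeq2 fit). The STAG2 peak (chrX:123958692-123965106) had 2370.2 and 2343 counts, with a log2 fold change of -0.02 and an SE of 0.06 (adjusted p = 0.858, authors' DESeq2 fit). STAG2 minus STAG1 was 0.09, with an interval from -0.07 to 0.26. A shift between these paralogs was thus not resolved at this precision.

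NIPBL, the loader, had a promoter peak (chr5:36874255-36879835) of 1535 counts in non-senescent and 1692 in senescent cells. The log2 fold change was 0.14 with an SE of 0.07 (adjusted p = 0.100, authors' DESeq2 fit). WAPL, which releases cohesin, had the lowest mean count of the 10 promoters (chr10:86520420-86523256), at 600.2 and 620.0 counts. Its log2 fold change was 0.05 with an SE of 0.11 (adjusted p = 0.758, authors' DESeq2 fit). Neither the loader nor the releaser passed the adjusted p.

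PDS5A and PDS5B, the platform proteins that work with WAPL, were lower by adjusted p and short of the fold threshold. At PDS5A (chr4:39975832-39979226) the implied mean was 914 and then 799 counts, a log2 fold change of -0.19 with an SE of 0.08 (adjusted p = 0.0492, authors' DESeq2 fit). At PDS5B (chr13:32585494-32589160) it was 742 and then 603 counts, a log2 fold change of -0.30 with an SE of 0.10 (adjusted p = 0.00763, authors' DESeq2 fit). PDS5B had the lowest fold change of the 10 promoters. PDS5B minus PDS5A was -0.10, with an interval from -0.35 to 0.15.

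Away from the promoters the picture was less even. In all, 4 of the 37 H3K27ac peaks were gained and 3 lost, and each of the 7 lay outside coding promoters, where the genes had 26 peaks. Of all H3K27ac peaks 9.47% were gained and 13.1% lost, and outside coding promoters 11.3% and 14.4%. The gained peaks lay in the bodies of STAG2, WAPL, PDS5A and PDS5B, and the lost ones beside NIPBL and WAPL. The median log2 fold change of the 26 peaks was 0.37, against -0.01 over all 37482 peaks outside coding promoters, and 18 of the 26 were above 0. The 26 peaks were weaker than those peaks at large, with a median mean count of 45.2 against 76.4. With the GC trend removed the median was 0.30.

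**Figure D2:**
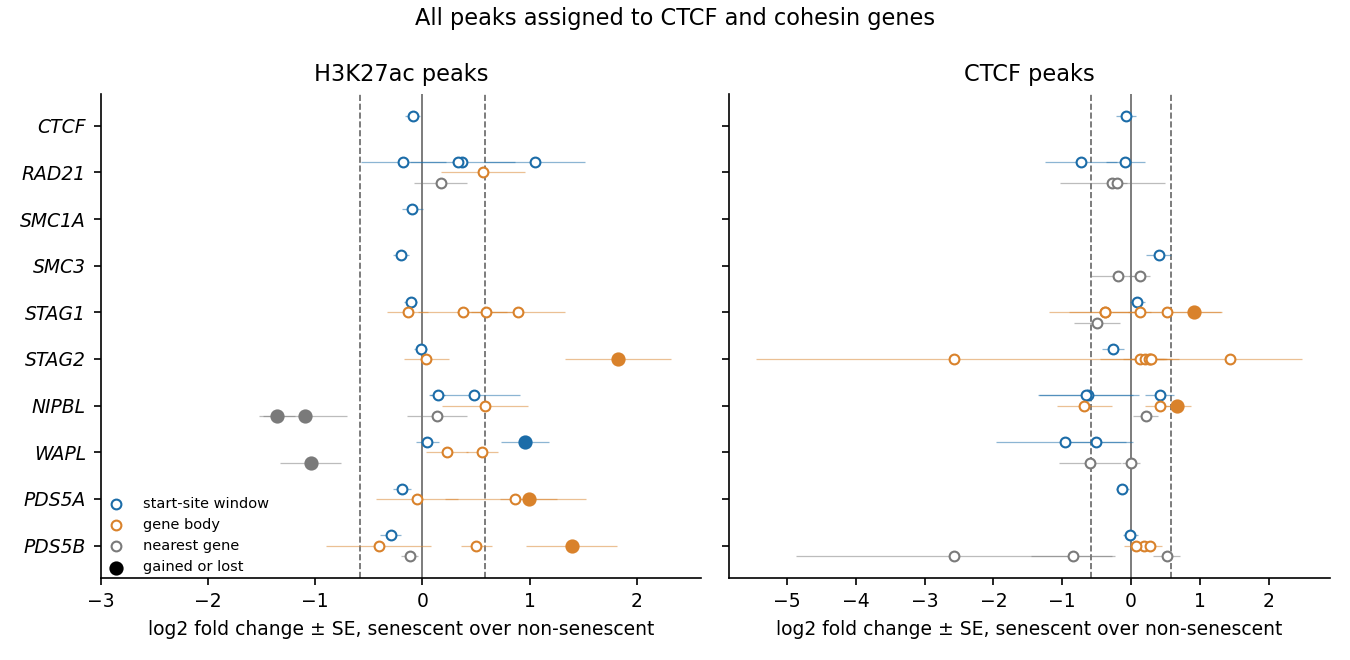
Log2 fold change, senescent over non-senescent, of every H3K27ac peak (left) and CTCF peak (right) assigned to each gene, with bars of 1 SE. Colour gives how the peak was assigned, filled points were gained or lost, and dashed lines mark a fold change of 1.5. The 7 filled H3K27ac points lie away from the tight group of strongest promoter peaks near 0.

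The largest gain was in STAG2, at chrX:124289757-124290383, 328051 bp into the gene. The implied mean was 8.33 counts in non-senescent and 29.5 in senescent cells, a log2 fold change of 1.82 with an SE of 0.49 (adjusted p = 9.82e-04, authors' DESeq2 fit). It is a weak peak, with a mean count of 18.9, and it also falls within SH2D1A and TEX13D, whose annotated bodies overlap that of STAG2. TEX13D has the nearest coding start site.

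In PDS5B a peak at chr13:32714938-32715537, in an intron, went from 13.1 to 34.3 counts, a log2 fold change of 1.39 with an SE of 0.42 (adjusted p = 0.00372, authors' DESeq2 fit). In PDS5A an intronic peak at chr4:39930939-39932279 went from 46.3 to 92.1 counts, a log2 fold change of 0.99 with an SE of 0.26 (adjusted p = 8.14e-04, authors' DESeq2 fit). In WAPL an intronic peak at chr10:86440437-86442198 went from 59.1 to 114 counts, a log2 fold change of 0.95 with an SE of 0.22 (adjusted p = 1.27e-04, authors' DESeq2 fit). This WAPL peak lay 79594 bp past the canonical start and within 2 kb of the start of a retained-intron transcript. Those in PDS5A and WAPL overlapped an enhancer listed for senescent cells.

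The lost peaks lay outside the bodies of coding genes. Past the 3′ end of NIPBL, a peak at chr5:37085760-37088113 fell from 242 to 94.4 counts, a log2 fold change of -1.36 with an SE of 0.17 (adjusted p = 1.19e-14, authors' DESeq2 fit). It overlapped an enhancer listed for non-senescent cells and the pseudogene RPS4XP6. A neighbouring peak at chr5:37090334-37091086 fell from 48.3 to 22.6 counts, with a log2 fold change of -1.10 and an SE of 0.39 (adjusted p = 0.0156, authors' DESeq2 fit). The third, at chr10:86535276-86536207, lay 13484 bp upstream of WAPL and fell from 72.7 to 35.3 counts, with a log2 fold change of -1.04 and an SE of 0.28 (adjusted p = 0.00105, authors' DESeq2 fit). None of the 3 was assigned to these genes when start sites of non-coding genes were also considered, so their link to NIPBL and WAPL rests on nearness among coding genes.

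Of the 16 H3K27ac peaks assigned by a gene body, 13 had a log2 fold change above 0, with a median of 0.56. Peaks inside a body but near a start site, such as the gained one in WAPL, are not among the 16. Several of the 16 were weak, with mean counts down to 11.3. The same values over the bodies of all genes were not computed, so whether this is particular to these genes was not tested. Of the 16, the peaks in STAG2, PDS5A and PDS5B described above were called. In WAPL, beside the gained peak, a peak of 209.5 mean counts stood at 0.55 on the log2 scale (SE 0.15), and in PDS5B one of 214 mean counts stood at 0.50 (SE 0.15). Both passed the adjusted p alone. The latter carried a listed senescent enhancer.

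**Figure D3:**
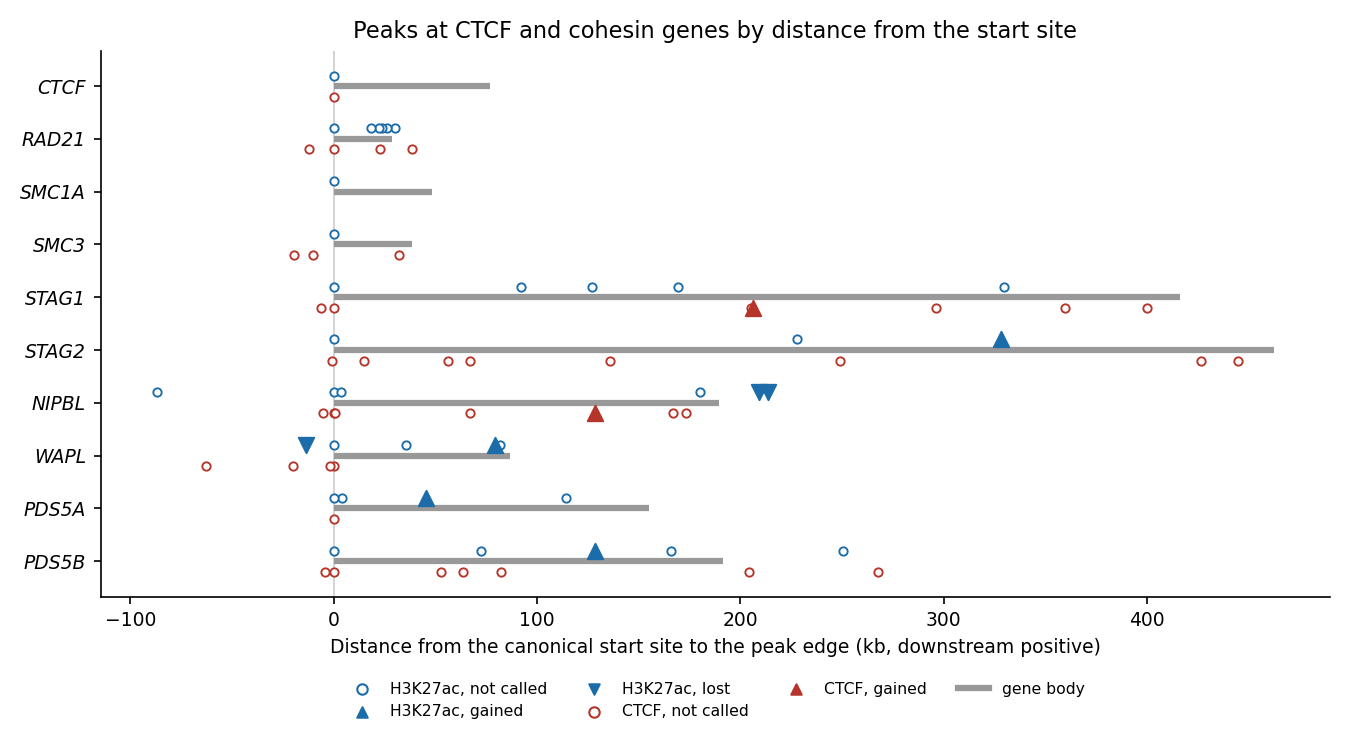
Position of each peak by its distance in kb from the canonical start site, with the gene body as a grey bar, H3K27ac above it in blue and CTCF below it in red. Triangles pointing up were gained and those pointing down lost. The gained H3K27ac peaks lie inside STAG2, WAPL, PDS5A and PDS5B, the lost ones past the end of NIPBL and upstream of WAPL, and the gained CTCF peaks inside STAG1 and NIPBL.

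The authors' enhancer lists, built from H3K27ac and H3K4me1 in each state, named regions at 6 of the 10 genes. The share of all coding genes with such a region was not computed, so this count cannot be called high or low. Of 14886 non-senescent enhancers, 4 were at RAD21, STAG2, NIPBL and PDS5B, 1 each. Of 13076 senescent enhancers, 4 were at WAPL, PDS5A and PDS5B, the last with 2. PDS5B alone had regions on both lists. A pair of these lay over the same H3K27ac peak, 250678 bp past its start, whose log2 fold change was -0.12. CTCF, SMC1A, SMC3 and STAG1 had none. No listed enhancer at these genes overlapped a CTCF peak.

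Rb, the pocket protein that represses E2F target genes, had 2435 regions listed as specific to senescent cells, of which 282 (11.6%) were at coding promoters. Per the study's methods, these regions were called by an unadjusted p against non-senescent samples. A share of all coding genes with such a region was not computed, so the count here cannot be called high or low. The 10 genes had 3 of these regions. Those at the CTCF gene and at SMC1A (chrX:53422237-53422514, 140 bp past the start) were at promoters, and the third was inside STAG1, at chr3:136377813-136378105, with no H3K27ac or CTCF peak over it. The CTCF and SMC1A promoters had H3K27ac log2 fold changes of -0.09 and -0.10. Over the 271 H3K27ac promoter peaks that overlapped an Rb region, 1.93% of all promoter peaks, the median was 0.06, with quartiles at -0.10 and 0.21.

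Binding of CTCF protein at its own gene and at the cohesin genes changed at 2 of 42 peaks, both of them gains, where a call takes a fold change over 1.5 with an adjusted p below 0.2. For 10 of the 42 the authors' table leaves the adjusted p blank, and these peaks stayed without a call. Of the 32 peaks with an adjusted p, 2 were gained and 0 lost. Among all CTCF peaks with an adjusted p, 2.99% were gained and 4.28% lost. The median log2 fold change of the 42 was -0.01, as was that of all CTCF peaks. SMC1A had no CTCF peak, PDS5A and the CTCF gene had 1 each, at the start site, and STAG2 had the most, with 8.

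The gain in NIPBL lay at chr5:37005525-37006821, over an exon 128756 bp into the gene, and contained the core site shown above. It went from 109 to 173 counts, a log2 fold change of 0.67 with an SE of 0.20 (adjusted p = 0.0341, authors' DESeq2 fit). The gain in STAG1 lay in an intron at chr3:136545600-136546220, without a core of at most 1 mismatch. It went from 23.1 to 43.8 counts, a log2 fold change of 0.92 with an SE of 0.41 (adjusted p = 0.188, authors' DESeq2 fit). Both peaks are AT-rich, at 29.8% and 34.6% GC, and with the GC trend of the table removed neither passed. The adjusted p-values of the DESeq2 estimates were then 0.279 for NIPBL and 0.529 for STAG1. Neither overlapped an H3K27ac peak.

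At the start sites, CTCF binding was strongest at PDS5A, with 904 counts in non-senescent and 829 in senescent cells and a log2 fold change of -0.12 (SE 0.10). STAG1 followed, with 498 and 530.2 counts and 0.09 (SE 0.11), and PDS5B, with 494 and 490.1 counts and -0.01 (SE 0.11). The CTCF gene itself had 403 and 383 counts and a log2 fold change of -0.07 (SE 0.14). For these 4 genes the 95% interval lay within 1.5-fold in either direction. STAG2 had 255 and 213 counts at its start, with -0.26 (SE 0.16), an interval also within that range.

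Intervals at the other start-site peaks were wider. NIPBL had 111 and 148 counts and a log2 fold change of 0.42 (SE 0.21). In SMC3 the peak lay 32027 bp past the canonical start, near the start of a non-coding transcript, with 144 and 190.2 counts and 0.40 (SE 0.18). RAD21 and WAPL had weak peaks, of 60.6 and 23.4 mean counts, with -0.08 (SE 0.29) and -0.51 (SE 0.44). The RAD21 peak held an exact core motif and lay 22980 bp past the canonical start, and the WAPL peak lay 1577 bp before it. None of these was called.

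Among the peaks of at least 50 mean counts, 16 of 25 were above 0, with a median of 0.13 against 0.05 over all such CTCF peaks. Among the 17 weaker peaks, 4 were above 0, with a median of -0.49 against -0.14. The medians of the stronger and weaker peaks of these genes thus lay on opposite sides of 0, as did those over all CTCF peaks. Fold changes of -2.58 in STAG2 and beside PDS5B had SEs of 2.87 and 2.29, so neither can be placed above or below 0. They were 2 of 334 peaks in the table with an SE above 2.

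**Figure D4:**
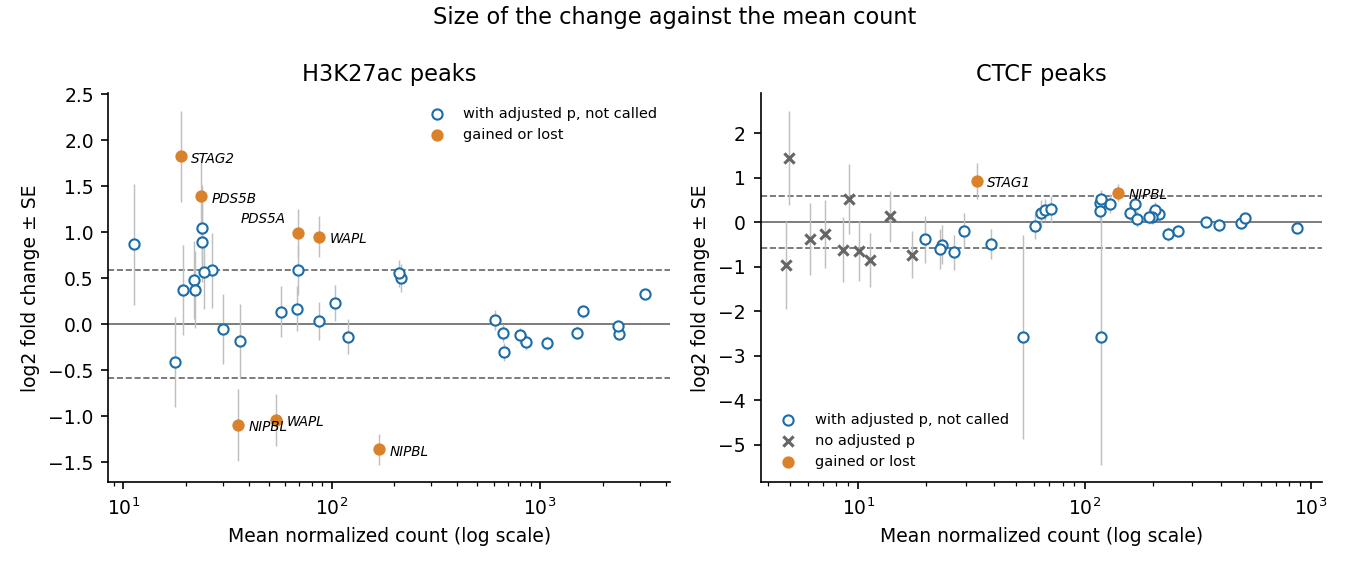
Log2 fold change with bars of 1 SE against mean normalized count (log axis), for the H3K27ac peaks (left) and CTCF peaks (right) of the 10 genes. Orange points were gained or lost, crosses had no adjusted p, and dashed lines mark a fold change of 1.5. The called peaks have mean counts from 18.9 to 168 for H3K27ac and of 33.4 and 141 for CTCF, and the strongest peaks lie near 0.

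As a setting for the 10 genes, the promoters of 42 related genes were read in the same way, in groups for cohesin regulators, germline paralogs, condensin, the SMC5-SMC6 complex and factors found with CTCF. H3K27ac peaks were found at 41. None was gained and 6 were lost, against the 4.53% and 9.81% of all promoter peaks given above, and their median log2 fold change was -0.11. The lost promoters were those of ESPL1, PLK1 and DDX11 among 13 cohesin regulators, SMC1B among 4 germline paralogs with a peak, NCAPH among 8 condensin genes and NSMCE4A among 6 of the SMC5-SMC6 complex. Of the 10 factors found with CTCF, among them YY1, ZNF143 and MAZ, none was called, with log2 fold changes from -0.26 to 0.28. Some of the 41 peaks held starts of other genes, so they are no measure of the named promoter alone. That of NCAPD2 (chr12:6529122-6545055) held the start of GAPDH beside a start of NCAPD2. It lay apart from the NCAPD2 start within the CTCF peak at chr12:6493506-6494743, so it does not measure that start. The peak of PTTG1 held the start of SLU7 but none of PTTG1.

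The 2 lowest fold changes were at ESPL1 and PLK1. ESPL1, the separase that cuts RAD21, fell from 133 to 37.8 counts, a log2 fold change of -1.81 with an SE of 0.25. PLK1, the mitotic kinase that strips cohesin from chromosome arms, fell from 165 to 46.9 counts, a log2 fold change also of -1.81, with an SE of 0.21. DDX11, a helicase needed for cohesion, fell from 757 to 364 counts, with -1.06 and an SE of 0.10. Its near-identical pseudogene copies could share reads with it, so this value is uncertain.

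SMC1B, the meiotic form of SMC1A, fell from 363 to 164 counts, with -1.14 and an SE of 0.13, in a peak that also holds the start of RIBC2. NCAPH, the kleisin of condensin I, fell from 614 to 326 counts, with -0.91 and an SE of 0.11, and NSMCE4A from 406 to 198 counts, with -1.04 and an SE of 0.13. The loading partner MAU2 had 0.17 with an SE of 0.08, short of the adjusted p. Promoter CTCF peaks were lost at NCAPD2 (log2 fold change -1.07, SE 0.31) and NCAPH2 (-0.91, SE 0.26) among 27 of these genes with one. The first of these peaks also holds the start of MRPL51, and the second holds the start of LMF2 and lies near that of NCAPH2 without holding it. With the GC trend removed the NCAPD2 peak was still called and the NCAPH2 peak was not.

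**Figure D5:**
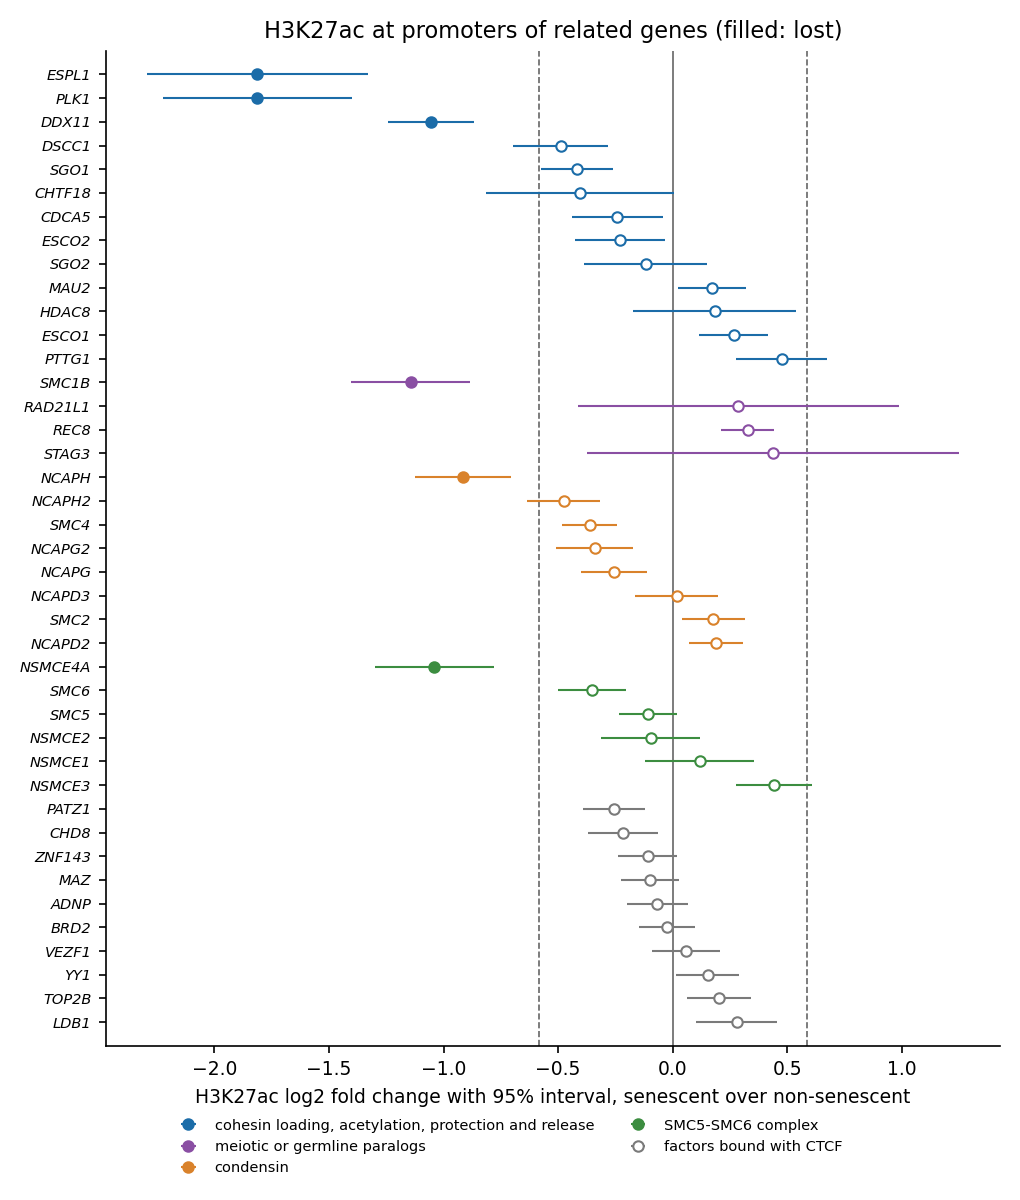
Log2 fold change of H3K27ac, senescent over non-senescent, at the strongest start-site peak of each of 41 related genes, with 95% intervals. Colours give the group, filled points were lost and dashed lines mark a fold change of 1.5. The 6 filled points run from -1.81 at ESPL1 to -0.91 at NCAPH, and no interval of a factor found with CTCF reaches a dashed line.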

How the data were processed

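The authors aligned ChIP-seq reads to hg38 with Bowtie2, called peaks against input with HOMER (H3K27ac) or MACS2 (CTCF), and compared read counts per peak between 3 senescent and 3 non-senescent libraries with DESeq2. The sources used here give no tool versions. The deposited signal is the authors' mean of normalized counts over the libraries of a comparison. The authors' deposited log2 fold changes and standard errors, Wald scores, p-values and adjusted p-values are the result of their comparison, and no values per library were at hand. The count test planned here was therefore not possible, no model was refitted, and the authors' own comparison is what is described, at the study's thresholds. The depth of single libraries is unknown, and the standard errors carry the precision. The deposited enhancer and Rb lists hold positions alone.

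Peaks were assigned with GENCODE release 44 by overlaps of at least 1 bp, and a peak within 2 kb of the start of a coding transcript counted as at a coding promoter. The mean of each state was derived from the deposited mean and fold change. Intervals of differences between paralogs treat the deposited errors as independent. The GC trend was interpolated between the medians of 20 GC bins of peaks outside coding promoters, listed enhancers and peaks of the other table. Calculations used Python 3.11.15, pandas 2.3.3, SciPy 1.17.1 and pysam 0.24.0, and were tested on simulated data.

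The genes, the related genes and the markers were chosen with earlier results of these data known. Named are all 10 genes at their strongest start-site peaks, every called peak assigned to them, and each related gene with a called promoter, and a few further related genes were named after their values were seen.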

Additional observations from a re-analysis of the deposited data

How the results depend on the processing

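The counts at the 10 genes depended on the thresholds. Without a fold threshold, 7 H3K27ac peaks were gained and 6 lost in place of 4 and 3, 4 CTCF peaks were gained in place of 2, and 8 related promoters were gained and 16 lost in place of 0 and 6. A fold threshold of 2 left 2 gained H3K27ac and 0 gained CTCF peaks. Tested against a fold change of 1.5, 0 H3K27ac peaks were gained and 1 lost, the peak past NIPBL, and 0 CTCF peaks were gained. A minimum mean count of 50 left 2 gained H3K27ac peaks and 1 gained CTCF peak. The 3 lost H3K27ac peaks became 0 with start-site windows and gene bodies only, and 0 with the nearest start site among all genes. The 2 gained CTCF peaks became 1 at an adjusted p of 0.05 and 1 with p-values adjusted over every peak of the table. They became 0 with the GC trend removed, and 0 with that at an adjusted p of 0.05, an alternative chosen after seeing the data. Exact core motifs left 5 of the 19 CTCF peaks. Lost CTCF peaks stayed at 0 under each alternative. The median of the 10 promoters ran from -0.13 to -0.09, and 39 of the 58 values recomputed in all moved by less than the limits set (1.5 times for a count, the spread for a median). No paired analysis was possible because the tables hold no values per library. For the same reason no library could be left out.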
